A study of Mus musculus with 2 samples.

Results

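Imprinted genes were read in the embryonic mouse heart as a list of 39 genes given by name. Of these, 38 were found among the 43346 Ensembl genes of the deposited tables, and Peg13, the long noncoding RNA made inside Trappc9, was not analysed here. Of the 38, 6 are noncoding RNAs and 32 are treated as coding. Imprinted genes are expressed mainly or solely from the copy inherited from a single parent. The choice is set by DNA methylation that differs between egg and sperm at control regions and that is kept after fertilisation with the help of the zinc finger protein ZFP57. Most lie in clusters in which growth-promoting genes tend to be paternally expressed, growth-limiting genes tend to be maternally expressed, and a long noncoding RNA often silences its neighbours. In the developing heart the group is known for the growth factor Igf2, its clearance receptor Igf2r and the cell cycle inhibitor Cdkn1c.

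The series holds 1 group, hearts of mouse embryos at day 10.5 from strain B6NCrl, a C57BL/6N substrain, with no genetic change or treatment. Replicate 1 was a pool of hearts from 69 embryos and replicate 2 a pool from 51 embryos, each of both sexes, and 10 ng of total RNA above 200 nt was sequenced from each with ERCC spike-ins. Because the mice were inbred and the tables give 1 value per gene, the parental copy that made each RNA was not measured, and statements on parental origin below are background. With a single condition, genes can be set against each other and 1 pool against the other, and no p-value was computed.

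The libraries held 43295923 expected counts on mouse genes in replicate 1 and 39786163 in replicate 2. All 6 heart muscle markers were detected, but their summed level was 15928 TPM in replicate 1 and 25181 TPM in replicate 2. TPM is a relative abundance scaled by length so that each library sums to the same total. The 8 liver markers summed to 1313 TPM in replicate 1 and 53.1 TPM in replicate 2, and all 8 were at least 2-fold higher in replicate 1. All 4 foregut endoderm markers with a mean count of 50 or more were also at least 2-fold higher in replicate 1. Of these, Epcam and Krt18 passed 50 counts in both pools. Foxa2 (204 counts in replicate 1 and 11 in replicate 2) and Nkx2-1 (104 and 1) reached the minimum only through replicate 1. The same holds for Hnf4a, Serpina1a and Ttr among the liver markers, so these calls follow in part from the minimum. The pools therefore differed in markers of cells other than heart muscle, and in these bulk samples fewer cells of a type and less RNA per cell cannot be told apart.

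Several results below turn on where transcripts of Mest, Grb10 and Ddc begin, so the promoter windows of those starts are shown first. Each window runs from 250 bases before to 50 bases after a RefSeq start (RefSeq, GRCm38.p6). The Mest window, chr6:30737800-30738099 on the plus strand, surrounds the start of the transcript that held almost all Mest RNA. The Grb10 window, chr11:12037371-12037670 on the minus strand, surrounds the main Grb10 start. The first Ddc window, chr11:11898095-11898394, and the second, chr11:11890359-11890658, both on the minus strand, surround an upstream and the main Ddc start. The first holds the start of the transcript Ddc-210, at 11898144. The larger upstream transcript, Ddc-201, starts at 11898044, just outside that window. Capitals mark the hexamer TGCCGC, or GCGGCA where it lies on the other strand, which ZFP57 is known to bind when its CpG is methylated.
Mest main start: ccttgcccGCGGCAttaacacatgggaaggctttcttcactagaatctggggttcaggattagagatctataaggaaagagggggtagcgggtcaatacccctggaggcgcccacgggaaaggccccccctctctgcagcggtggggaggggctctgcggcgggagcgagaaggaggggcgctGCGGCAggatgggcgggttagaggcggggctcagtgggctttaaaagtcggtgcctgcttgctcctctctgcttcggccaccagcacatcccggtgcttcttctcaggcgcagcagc
Grb10 main start: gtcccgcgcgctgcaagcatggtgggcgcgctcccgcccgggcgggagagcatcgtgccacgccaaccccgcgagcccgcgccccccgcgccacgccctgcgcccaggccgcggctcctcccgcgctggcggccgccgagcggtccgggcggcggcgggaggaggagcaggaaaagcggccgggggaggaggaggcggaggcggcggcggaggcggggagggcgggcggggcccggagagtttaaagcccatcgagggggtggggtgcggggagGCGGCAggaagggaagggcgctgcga
Ddc upstream start: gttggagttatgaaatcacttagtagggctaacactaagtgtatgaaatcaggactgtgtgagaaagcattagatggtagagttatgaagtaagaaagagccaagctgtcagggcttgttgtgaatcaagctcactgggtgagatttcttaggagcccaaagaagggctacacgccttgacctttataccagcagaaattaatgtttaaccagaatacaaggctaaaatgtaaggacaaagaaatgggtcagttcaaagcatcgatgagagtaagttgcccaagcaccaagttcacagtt
Ddc main start: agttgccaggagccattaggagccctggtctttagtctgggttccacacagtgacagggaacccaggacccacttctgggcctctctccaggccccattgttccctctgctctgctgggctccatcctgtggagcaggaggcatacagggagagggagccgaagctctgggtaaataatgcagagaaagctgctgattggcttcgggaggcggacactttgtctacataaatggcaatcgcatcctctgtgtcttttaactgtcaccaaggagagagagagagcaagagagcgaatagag

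The Mest window held 2 copies of the hexamer and the Grb10 window 1, whereas neither Ddc window held any. The hexamer was searched on both strands and does not overlap any other motif searched, since it was the only motif. Impact was left out of the member windows. Of the other members, 31 had 1 or more windows in the RefSeq table, 47 windows in all. The hexamer lay in 11 of these windows, 23.4% against 11.6% of all 32851 windows, and 2 of the 11 were overlapping windows of Mest. Counted by gene, 10 of 31 members had it, 32.3% against 13.1% of all genes with a window. These were Zdbf2, Nnat, Mest, Copg2, Zim1, Snrpn, Igf2, Plagl1, Grb10 and Meg3. An upstream window of Zdbf2 held 3 copies, a number reached by 0.234% of all windows. Member windows were also richer in CpG, with a median of 15 CpG per window against 7 over all windows, and the hexamer itself contains a CpG. A match is a description of letters, not a site.

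Several members also host microRNAs, and 3 of the hairpins show how the short RNAs sit within genes measured here. miR-335 lies in an intron of Mest, miR-675 in an exon of H19, and miR-127 within Rtl1 on the opposite strand. The mature RNAs are given from RefSeq (GRCm38.p6) with the seed, bases 2 to 8, in capitals.
mmu-miR-335-5p: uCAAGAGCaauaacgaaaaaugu
mmu-miR-335-3p: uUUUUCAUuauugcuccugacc
mmu-miR-675-5p: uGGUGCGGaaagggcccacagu
mmu-miR-675-3p: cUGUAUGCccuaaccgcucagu
mmu-miR-127-5p: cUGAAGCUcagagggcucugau
mmu-miR-127-3p: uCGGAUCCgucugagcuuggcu

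These 6 seeds were all different, as were the seeds of the 15 arms of the hairpins in Mest, in H19 and on the strand opposite Rtl1. In all, 29 hairpins lay within members, 25 of them in the chromosome 12 members and 14 of those in Mirg. The tables listed 27 of the 29, each at 0 counts in both libraries. The libraries were made from RNA above 200 nt, so these zeros say nothing of the mature RNAs, and the host RNAs below are not a measure of them.

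Imprinted genes were detected more often than genes at large, as were other lists of known genes. Both pools held 1 TPM or more for 32 of 38 members (84.2%), against 31.7% of all genes and 57% of protein-coding genes. All 6 noncoding members, H19, Meg3, Rian, Airn, Mirg and Kcnq1ot1, were detected, against 11.1% of long noncoding genes. Of 44 further imprinted genes 32 of the 41 measured were detected, as were 17 of 19 factors that set or keep imprints.

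Together the members held 1.00% of all gene TPM in replicate 1 and 0.993% in replicate 2, a mean of 0.997 ± 0.00557% (SD, n = 2). By expected counts, which are not divided by length, the shares were 1.52% in replicate 1 and 1.62% in replicate 2. Most of this came from few genes. Mest alone held 30.0% of member TPM in replicate 1 and 40.6% in replicate 2, and the 5 most abundant members held 67.1% in replicate 1 and 75.8% in replicate 2. The near-equal totals covered members that moved in opposite directions, since Mest was higher in replicate 2 while Dlk1, Nnat and Meg3 were higher in replicate 1.

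By mean TPM, 13 members stood at 100 TPM or more, 12 at 10 to 100, 7 at 1 to 10 and 6 under 1 TPM. The 12 that passed 100 TPM in both pools can be set beside the 3.46% of all genes that did. In the order of mean TPM, only Mest stood apart from its next neighbour, Cdkn1c, by more than a limit drawn from the pools themselves. That limit is the 95th percentile of the absolute log2 TPM ratio between the pools over 14124 genes with a mean count of 50 or more, and it came to 1.24, or 2.36-fold. The other 36 steps of the order lay within it, so close ranks below Mest are not separated.

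**Figure D1:**
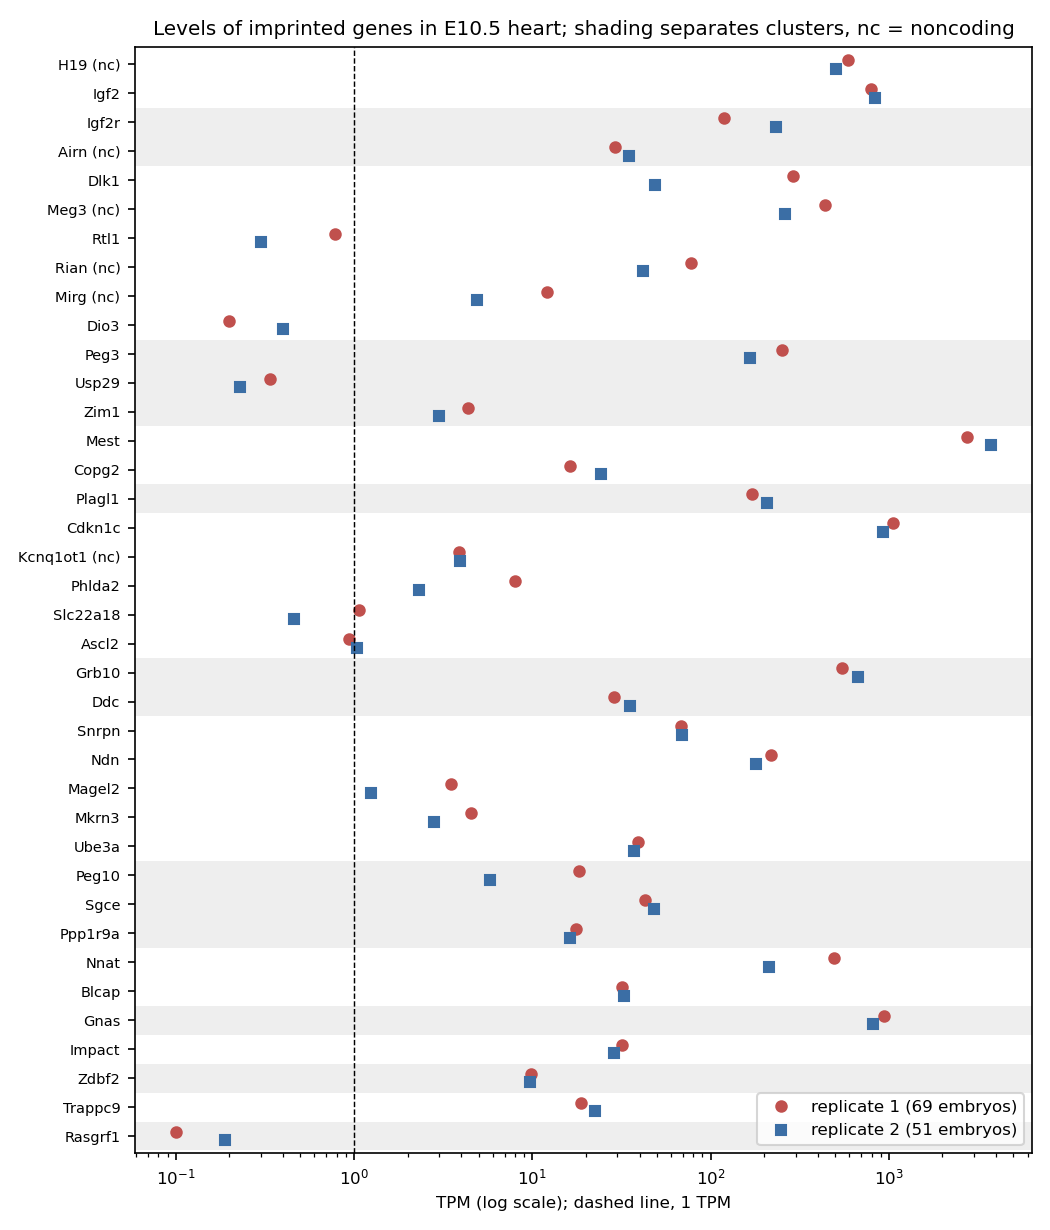
TPM of the 38 imprinted genes in replicate 1 (circles, 69 embryos) and replicate 2 (squares, 51 embryos) on a log axis, grouped by cluster, with nc for noncoding RNAs. Mest stands highest in both pools, Dlk1 shows a wide gap between pools with 289 TPM in replicate 1 and 48.6 TPM in replicate 2, and 4 genes lie left of the 1 TPM line in both pools.

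Coding and noncoding members both spanned a wide range of levels. The median of the mean TPM was 45.8 over the 6 noncoding members and 31.3 over the 32 coding members. Mean TPM ran from 3.92 to 548 over the noncoding members and from 0.145 to 3245 over the coding members. The 2 medians therefore do not separate the kinds or show them alike. Noncoding members held 12.7% of member TPM in replicate 1 and 9.22% in replicate 2, a mean of 10.9 ± 2.44% (SD, n = 2). They also held 6.78% of all long noncoding TPM in replicate 1 and 6.03% in replicate 2. By the parental origin known as background, the 16 maternally expressed members summed to 2980 TPM in replicate 1 and 2793 TPM in replicate 2. Those known as paternally expressed, 21 in number, summed to 5194 TPM in replicate 1 and 5645 TPM in replicate 2, and Gnas, which makes RNAs of both kinds, was kept apart. Mest alone made 2734 TPM of the paternal sum in replicate 1 and 3755 TPM in replicate 2. Without Mest the paternal sum would lie below the maternal sum in both pools. The sums also take in genes known to be imprinted in neurons or brain, such as Ube3a and Rasgrf1.

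Between the pools, 7 of the 33 members with a mean count of 50 or more were at least 2-fold higher in replicate 1 by TMM-scaled counts, 21.2% against 5.13% of all genes. They were Dlk1, Phlda2, Magel2, Peg10, Rtl1, Mirg and Nnat. Phlda2, with 160 counts in replicate 1 and 42 in replicate 2, reached the minimum only through replicate 1, so its call follows in part from it. Scaled by spike-ins instead, which shifts every gene towards replicate 2, 4 members were 2-fold higher in replicate 1, against 3.23% of all genes, without Mirg, Nnat and Rtl1. A single member, Igf2r, was at least 2-fold higher in replicate 2, where 2.44% of all genes were. The authors' deposited TPM intervals did not overlap for any of these 8, where 4.75% of all genes were 2-fold higher in replicate 1 with intervals apart and 2.31% were so in replicate 2. Intervals lay apart for 28 of the 33 members, against 52.3% of all genes, and since narrow intervals come with high counts this share also follows abundance. The members as a whole were not shifted, with 18 of 33 higher in replicate 1 against 48.4% of all genes, and 12 of 33 under spike-in scaling, which moved all genes towards replicate 2. The median log2 ratio of replicate 1 over replicate 2 was 0.03 over the 38 members, all of which had a mean count of 10 or more, and 0.00 over 17547 genes with that minimum. The upper quartile was 0.72 over members and 0.30 over all genes, and the lower quartile was -0.29 over members and -0.28 over all genes.

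**Figure D2:**
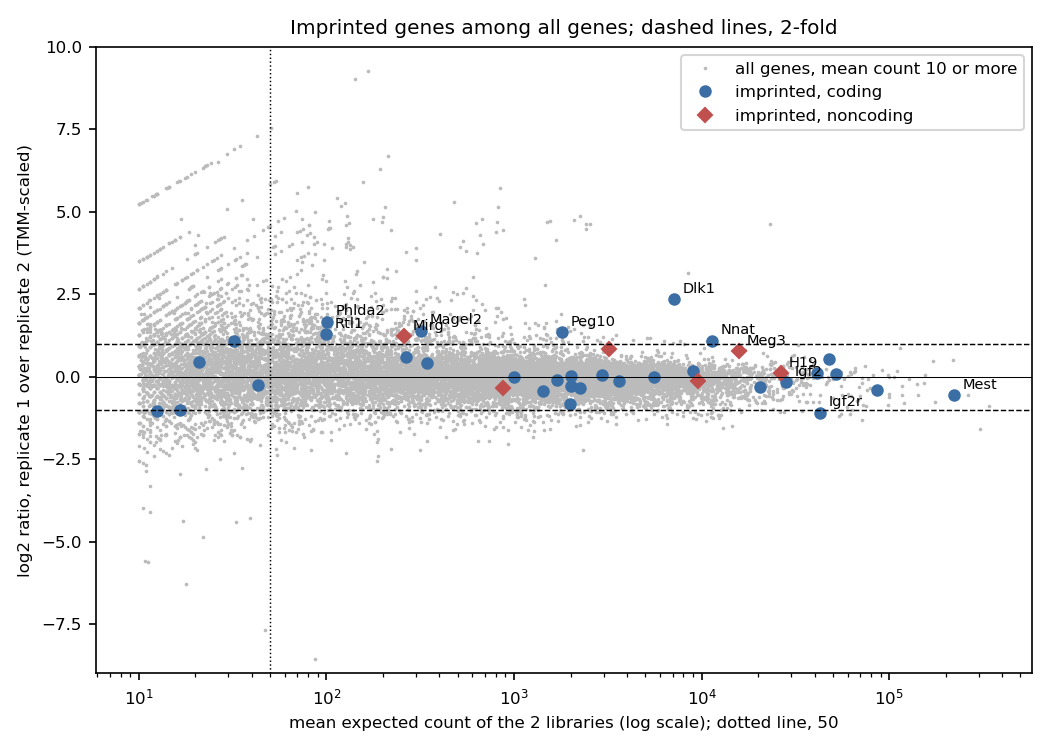
Log2 ratio of TMM-scaled counts, replicate 1 over replicate 2, against the mean expected count of both libraries on a log axis, for all genes with a mean count of 10 or more (grey) and for coding (blue circles) and noncoding (red diamonds) imprinted genes. Dlk1 lies at 2.35 at a mean count well above the dotted line, and Igf2r at -1.09 is the member past the lower 2-fold line to the right of the 50-count line.

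The Dlk1-Dio3 cluster on chromosome 12 had a log2 ratio of summed counts of 1.13, and Igf2r/Airn one of -1.07. By TMM-scaled counts, 3 Dlk1-Dio3 members were called higher in replicate 1, more than in any other cluster, where 5.13% of all genes were so. Under every scaling tried, all 5 Dlk1-Dio3 members with a mean count of 50 or more were higher in replicate 1. The Dlk1-Dio3 cluster summed to 820 TPM in replicate 1, against 359 TPM in replicate 2. Dlk1 (ENSMUSG00000040856.13, 109452823 to 109463336, mm10), a membrane protein of the Delta family that inhibits fat cell formation and marks fetal liver progenitors, had 289 TPM in replicate 1 and 48.6 TPM in replicate 2. Its expected counts were 12272 in replicate 1 and 2019 in replicate 2. The TMM-scaled ratio was 5.11-fold (95% interval from counting error, 4.88 to 5.36), the largest ratio among the 33 members with a mean count of 50 or more.

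The 3 noncoding RNAs of the cluster, which are maternally expressed and read in the same direction, were all higher in replicate 1. Meg3, a nuclear RNA, had 440 TPM in replicate 1 and 262 TPM in replicate 2. Rian, a host of C/D box small nucleolar RNAs, had 77.6 TPM in replicate 1 and 41.9 TPM in replicate 2. Mirg, a host of many microRNAs, had 12.1 TPM in replicate 1 and 4.87 TPM in replicate 2. Their TMM-scaled ratios were 1.70-fold for Meg3 (1.66 to 1.74), 1.80-fold for Rian (1.70 to 1.89) and 2.33-fold for Mirg (1.92 to 2.86). Mirg alone of these passed 2-fold, and the ratios of Meg3 and Rian were not separated. In both pools the level fell along the unit, with Meg3 above Rian and Rian above Mirg, each step larger than the limit between pools.

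The retrotransposon-derived Rtl1, which is needed for vessels of the placenta, was at the edge of detection with 0.78 TPM in replicate 1 and 0.30 TPM in replicate 2. Its ratio was 2.45-fold (1.78 to 3.45). Rtl1 shares exonic bases with microRNA hairpins of the opposite strand, as miR-127 shows, and whether counting used strand is not stated in the labels or headers. Dio3, the deiodinase that inactivates thyroid hormone, had 0.20 TPM in replicate 1 and 0.40 TPM in replicate 2 at a mean count under 50, and was not called. Of the 2 coding neighbours, Dlk1 exceeded Rtl1 by 371-fold in replicate 1 and 162-fold in replicate 2. Dlk1 was known beforehand as a fetal liver marker, and the liver markers above moved the same way at a median log2 ratio of 4.64, against 2.35 for Dlk1. The foregut endoderm markers above also moved this way. So did all 3 skeletal myoblast markers with a mean count of 50 or more (median 1.30) and the 1 such neural marker (0.47). Of the myoblast markers, Pax3 (175 counts in replicate 1 and 25 in replicate 2) and Myog (83 and 28) reached the minimum only through replicate 1. Their direction therefore follows in part from the minimum. Of 5 cushion mesenchyme markers 4 were higher in replicate 1 (median 0.36), as were 4 of 5 epicardium markers (0.08). The heart muscle, endothelial and red cell markers were all higher in replicate 2. The part of any of these cells in the cluster's ratio was not tested.

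**Figure D3:**
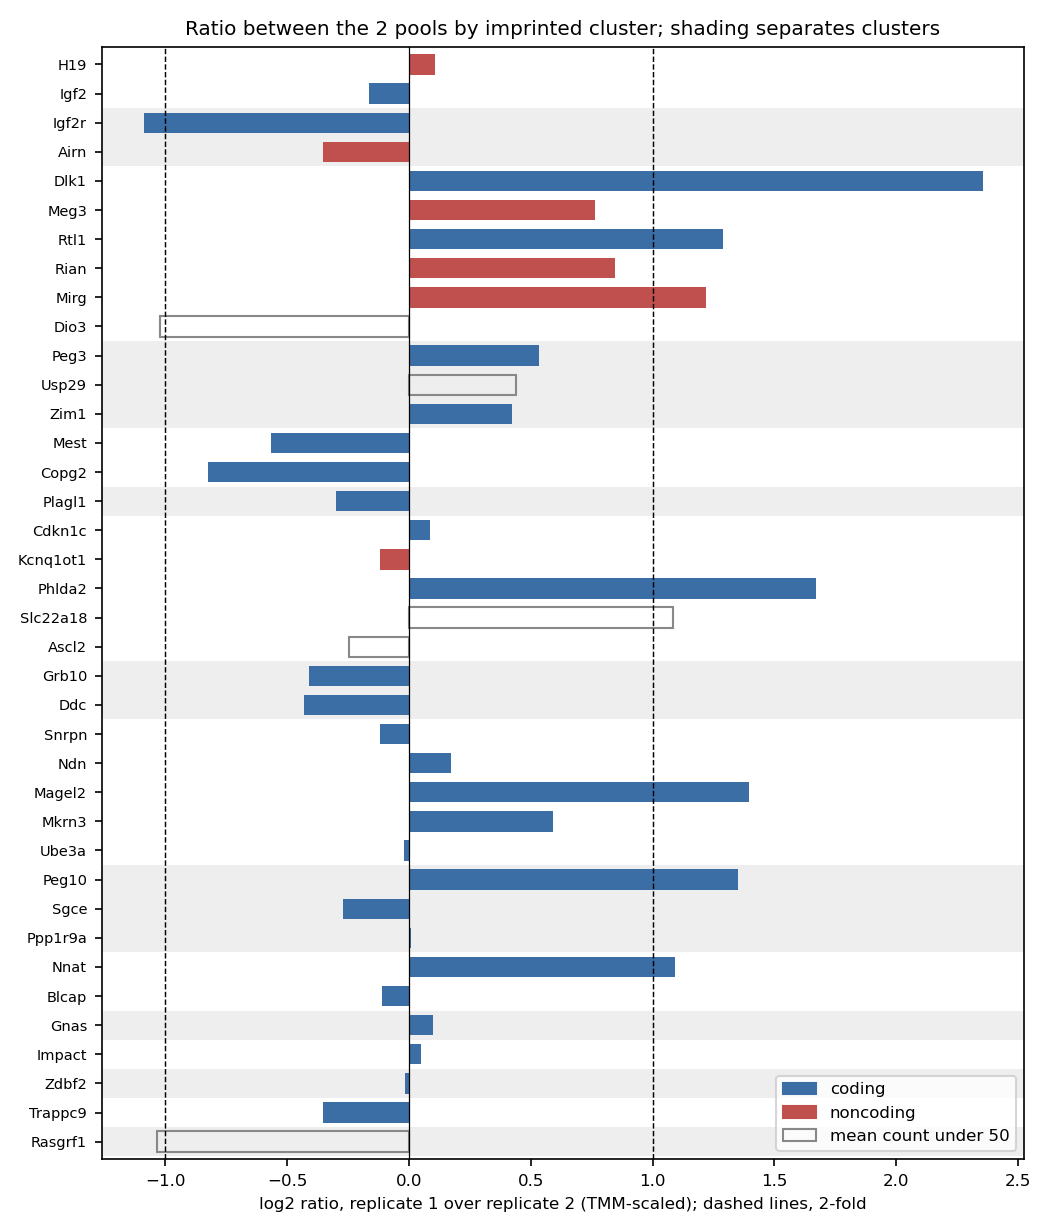
Log2 ratio of TMM-scaled counts, replicate 1 over replicate 2, for each imprinted gene in cluster order, with coding genes in blue, noncoding genes in red, genes with a mean count under 50 as open bars, and 2-fold as dashed lines. All filled bars of the Dlk1-Dio3 cluster point to replicate 1, whereas those of the Igf2r/Airn, Mest and Grb10 clusters point to replicate 2.

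The H19/Igf2 locus on chromosome 7 was strongly and evenly expressed. Igf2 (ENSMUSG00000048583.12, 142650766 to 142666816), a paternally expressed growth factor made by the outer and inner linings of the embryonic heart, had 795 TPM in replicate 1 and 833 TPM in replicate 2. H19 (142575529 to 142578143), its maternally expressed noncoding neighbour that shares enhancers with it, had 592 TPM in replicate 1 and 505 TPM in replicate 2. Ratios between pools were 0.89-fold for Igf2 and 1.08-fold for H19, and neither passed 2-fold. H19 over Igf2 gave a log2 TPM ratio of -0.43 in replicate 1 and -0.72 in replicate 2, within the limit, so the 2 levels were not separated. No single H19 transcript dominated: H19-205, H19-202 and H19-203 held 40.4%, 34.9% and 24.7% of its TPM in replicate 1 and 38.9%, 37.6% and 23.5% in replicate 2. By TPM, Igf2 was likewise divided between Igf2-203, with 39.1% in replicate 1 and 39.6% in replicate 2, and Igf2-208, with 37.7% in replicate 1 and 36.6% in replicate 2. These are short, at 650 and 958 nt. By counts, Igf2-205 led with 27.3% in replicate 1 and 28.9% in replicate 2. Igf2-208 then held 27.0% in replicate 1 and 26.3% in replicate 2, Igf2-202 24.2% and 22.8%, and Igf2-203 18.0% and 18.3%. These transcripts of H19 and Igf2 were named after their values were seen.

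Igf2r (ENSMUSG00000023830.9, chromosome 17, 12682406 to 12769664), the maternally expressed receptor that takes up IGF2 for breakdown, was the member that went the other way. It had 119 TPM in replicate 1 and 233 TPM in replicate 2, with 30667 expected counts in replicate 1 and 54952 in replicate 2. Its TMM-scaled log2 ratio was -1.09, or 2.13-fold higher in replicate 2, just past the threshold, and by deposited TPM it was -0.96 and no longer 2-fold. Airn, the paternally expressed RNA that runs across Igf2r in the opposite direction and silences it, had 28.9 TPM in replicate 1 and 34.9 TPM in replicate 2. Airn stood below Igf2r by 4.13-fold in replicate 1 and 6.67-fold in replicate 2, beyond the limit. The Airn transcripts with counts were 485 to 1375 nt long, although the gene runs from 12741311 to 12860136, so its TPM describes these forms alone. Igf2 exceeded its receptor by 6.66-fold in replicate 1 and 3.58-fold in replicate 2 by TPM, while by counts, which favour the longer Igf2r mRNA, the mean log2 ratio was -0.54. Also higher in replicate 2 were all 6 heart muscle markers (median log2 ratio -0.83), all 5 endothelial markers (-0.60) and all 5 red cell markers (-0.35), and their part in its ratio was not tested.

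Mest (ENSMUSG00000051855.11, chromosome 6, 30723547 to 30748465), a paternally expressed membrane protein of the hydrolase fold, was the most abundant member and ranked 23 among all 43346 genes by mean TPM. It had 2734 TPM in replicate 1 and 3755 TPM in replicate 2, a TMM-scaled log2 ratio of -0.57. The group of starts at the promoter printed above (starts from 30738050 to 30738055) held 98.4% of Mest TPM in replicate 1 and 98.7% in replicate 2. Within it, the transcript Mest-211 held 95.5% of the gene in replicate 1 and 96.4% in replicate 2. Each of the 3 start groups upstream of it had at most 2.09 TPM in either pool. Copg2, a coat protein subunit of vesicles that is transcribed towards Mest, had 16.3 TPM in replicate 1 and 24.2 TPM in replicate 2, a log2 ratio of -0.82. Mest exceeded Copg2 by 168-fold in replicate 1 and 155-fold in replicate 2. The genes share 912 exonic bases on opposite strands, and with Mest so much higher, reads of Mest counted for Copg2 cannot be told apart from its own.

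The cluster around Cdkn1c on chromosome 7 spanned a wide range of levels. Cdkn1c (ENSMUSG00000037664.8, 143458339 to 143461050), a maternally expressed inhibitor of cyclin-dependent kinases, had 1058 TPM in replicate 1 and 931 TPM in replicate 2, a ratio of 1.06-fold. Kcnq1ot1, the paternally expressed RNA that silences the cluster, had 3.89 TPM in replicate 1 and 3.95 TPM in replicate 2. This low TPM stood for many reads, 9970 counts in replicate 1 and 9126 in replicate 2, because the annotated RNA is 84395 nt long. Kcnq1ot1 was thus lower than Cdkn1c by 272-fold in replicate 1 and 236-fold in replicate 2 by TPM, a mean log2 ratio of -7.98, and by -2.44 in counts. Kcnq1, whose intron holds Kcnq1ot1 on the opposite strand, shares 121 exonic bases with it.

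Phlda2, a maternally expressed gene that limits placental growth, had 7.99 TPM in replicate 1 and 2.33 TPM in replicate 2. Its ratio of 3.18-fold (2.27 to 4.62) was the next largest after Dlk1. With 160 counts in replicate 1 and 42 in replicate 2, it reached the minimum mean count of 50 only through replicate 1. Slc22a18, a transporter of organic cations, had 1.06 TPM in replicate 1 and 0.46 TPM in replicate 2. Ascl2, a transcription factor of placental precursors, had 0.94 TPM in replicate 1 and 1.04 TPM in replicate 2. Both had mean counts under 50 and were not called.

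Grb10 (ENSMUSG00000020176.13, chromosome 11, 11930508 to 12038683), an adaptor that dampens insulin and IGF receptor signalling and is maternally expressed outside the brain, had 543 TPM in replicate 1 and 675 TPM in replicate 2. Its log2 ratio was -0.41. The transcript Grb10-201, whose start at 12037401 lies in the printed window, held 96.1% of its TPM in replicate 1 and 95.7% in replicate 2. Its neighbour Ddc, which makes dopamine and serotonin and of which an alternative transcript is paternally expressed in the embryonic mouse heart, had 28.8 TPM in replicate 1 and 35.5 TPM in replicate 2. Grb10 over Ddc gave a log2 TPM ratio of 4.24 in replicate 1 and 4.25 in replicate 2. This was the steadiest of the 22 pairs compared, with a mean log2 ratio of 4.24 ± 0.00597 (SD, n = 2).

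The RNA of Ddc was less concentrated at its main start than that of Gnas, Mest and Grb10. Its main start group (11890369 to 11890408) had 977 counts in replicate 1, 62.9% of the gene's TPM there, and 1353 counts in replicate 2, 77.6% of it. Ddc-202 led this group with 57.4% of the gene's TPM in replicate 1 and 72.4% in replicate 2. The upstream group (11898044 to 11898144) had 212 counts in replicate 1 and 0 in replicate 2. That gap is not firm, since the authors' deposited TPM interval of its larger transcript Ddc-201 reached 9.10 in replicate 1 and 8.57 in replicate 2, and the intervals overlapped. Of the remaining transcripts past 5% in either pool, Ddc-206 held 12.6% in replicate 1 and 15.7% in replicate 2, and Ddc-207 held 7.76% in replicate 1 and 4.11% in replicate 2. Which of these is the imprinted heart transcript is not annotated in the files.

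Gnas (ENSMUSG00000027523.15, chromosome 2, 174284320 to 174346744) makes several RNAs from separate first exons, and they did not move together. The gene as a whole had 934 TPM in replicate 1 and 816 TPM in replicate 2, a log2 ratio of 0.10. The downstream starts (174330006 to 174330287), which give the G protein subunit Gs alpha, held 95.7% of its TPM in replicate 1 and 98.2% in replicate 2. Here Gnas-208 led with 75.3% in replicate 1 and 73.8% in replicate 2, followed by Gnas-206 with 10.8% in replicate 1 and 13.6% in replicate 2 and Gnas-207 with 9.60% in replicate 1 and 10.9% in replicate 2.

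The 3 upstream start groups of Gnas were minor but higher in replicate 1. The most upstream (174284320 to 174285358), the place of the maternally expressed Nesp, had 742 counts in replicate 1 and 93.4 in replicate 2, a ratio of 6.66-fold (5.41 to 8.42). The next (174297859), the place of the paternally expressed extra-large form, had 311 counts in replicate 1 and 94.4 in replicate 2, a ratio of 2.76-fold (2.20 to 3.55). The third (174327570 to 174328023), the place of the exon 1A RNA, had 592 counts in replicate 1 and 188 in replicate 2, a ratio of 2.64-fold (2.25 to 3.14). The deposited TPM intervals of the leading Nesp-type transcript, Gnas-211, ran from 7.63 to 10.1 in replicate 1 and from 0.756 to 1.65 in replicate 2 and did not overlap. In the other upstream groups some intervals did overlap, so their ratios are less firm. Gnas-221 of the third group ran from 3.21 to 10.3 in replicate 1 and from 0.194 to 4.34 in replicate 2. In the second group Gnas-223 overlapped as well, and Gnas-203 went the other way, with 27.5 counts in replicate 1 and 61.4 in replicate 2. These transcripts were picked with their values in view. Counts per transcript are estimates, because a read in a shared exon is divided among the transcripts it matches. The most upstream group also shares 988 exonic bases with the antisense Nespas, which had 286 counts in replicate 1 and 192 in replicate 2. A second gene of the opposite strand, Gm20721, shares 1350 exonic bases with the first group, 1353 with the second, 1466 with the third and 1469 with the Gs alpha group. It had 959 counts in replicate 1 and 293 in replicate 2, the same direction as the 3 upstream groups, and its part in their ratios was not tested.

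**Figure D4:**
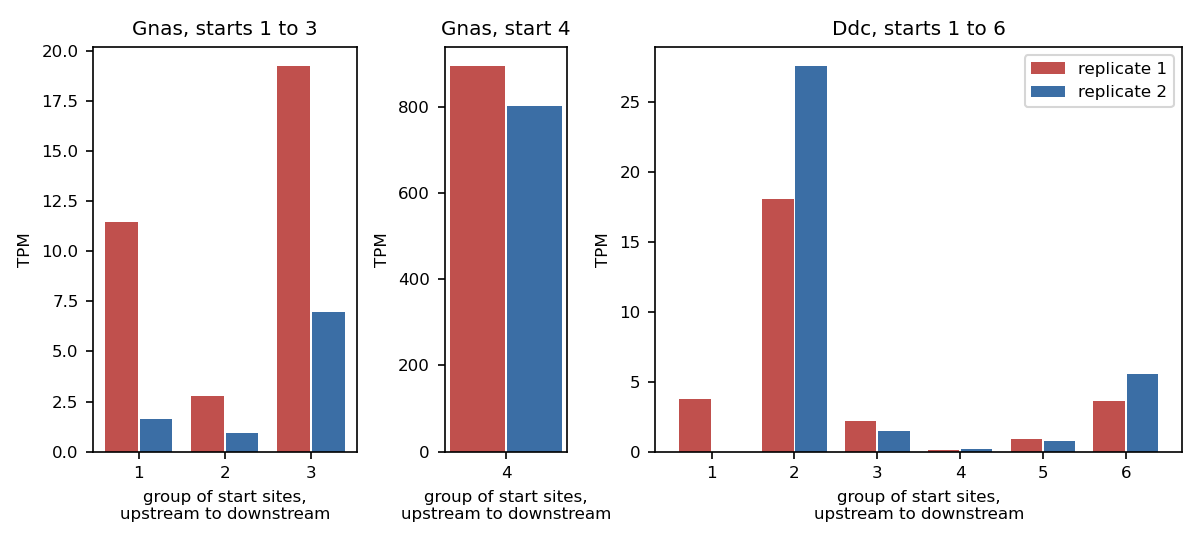
TPM by group of start sites, ordered from upstream to downstream, for Gnas groups 1 to 3 (left), Gnas group 4, the Gs alpha starts (middle, a separate axis), and Ddc (right), with replicate 1 in red beside replicate 2 in blue. Gnas groups 1 to 3 are higher in replicate 1, whereas group 4 is nearly level with 894 TPM in replicate 1 and 801 TPM in replicate 2.

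In its cluster near the start of chromosome 7, the leading gene was Peg3 (ENSMUSG00000002265.11, 6703892 to 6730431), a paternally expressed zinc finger protein, with 252 TPM in replicate 1 and 165 TPM in replicate 2. Its ratio was 1.45-fold. Zim1, a maternally expressed zinc finger gene, had 4.37 TPM in replicate 1 and 3.01 TPM in replicate 2. Usp29, a deubiquitinase that starts next to Peg3 in the other direction, had 0.34 TPM in replicate 1 and 0.23 TPM in replicate 2 and was not detected at 1 TPM. Peg3 exceeded Usp29 by 741-fold in replicate 1 and 719-fold in replicate 2, although the genes share a bidirectional promoter in the mouse.

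In the Snrpn region of chromosome 7, 5 members were measured and all were detected. Ndn, a MAGE family protein that restrains growth, led with 218 TPM in replicate 1 and 180 TPM in replicate 2. Snrpn, a splicing protein whose values share exonic bases with Snurf on the same strand, had 68.1 TPM in replicate 1 and 69.0 TPM in replicate 2. Ube3a, a ubiquitin ligase imprinted in neurons alone, had 39.4 TPM in replicate 1 and 37.3 TPM in replicate 2. Snrpn and Ube3a were not separated, with a mean log2 TPM ratio of 0.84 that reversed to -0.61 by counts. The intronless Magel2, a partner of ubiquitin ligases, had 3.49 TPM in replicate 1 and 1.24 TPM in replicate 2, a ratio of 2.63-fold (2.19 to 3.18). Mkrn3, a ring finger gene, had 4.55 TPM in replicate 1 and 2.81 TPM in replicate 2, a ratio of 1.51-fold.

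In the Peg10 cluster of chromosome 6 the members separated. Peg10, a retrotransposon-derived gene needed for the placenta, had 18.3 TPM in replicate 1 and 5.82 TPM in replicate 2, a ratio of 2.55-fold (2.37 to 2.75). Sgce, epsilon-sarcoglycan of the muscle membrane complex, begins next to Peg10 in the other direction and had 43.0 TPM in replicate 1 and 48.0 TPM in replicate 2. Ppp1r9a, an actin-binding scaffold, had 17.7 TPM in replicate 1 and 16.2 TPM in replicate 2. Peg10 was thus called higher in replicate 1, whereas the ratios of Sgce at 0.83-fold and Ppp1r9a at 1.01-fold were not past 2-fold.

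Nnat and Blcap on chromosome 2 also separated. Nnat (157560078 to 157562522), a small membrane protein lying inside Blcap, had 492 TPM in replicate 1 and 214 TPM in replicate 2, a ratio of 2.13-fold (2.07 to 2.19). Blcap, its host gene on the opposite strand, had 31.9 TPM in replicate 1 and 32.7 TPM in replicate 2, a ratio of 0.93-fold. Nnat exceeded Blcap by 15.4-fold in replicate 1 and 6.55-fold in replicate 2.

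The remaining members are given by gene. Plagl1, a zinc finger factor that binds other imprinted genes, had 171 TPM in replicate 1 and 207 TPM in replicate 2. Impact, which keeps translation going under amino acid shortage, had 32.0 TPM in replicate 1 and 28.9 TPM in replicate 2. Trappc9, a vesicle tethering subunit, had 18.8 TPM in replicate 1 and 22.6 TPM in replicate 2. None of these passed 2-fold between the pools. Zdbf2, a zinc finger gene, had 9.84 TPM in replicate 1 and 9.67 TPM in replicate 2, so its mean of 9.76 had an SD of 0.12 TPM. Rasgrf1, an exchange factor for Ras that is imprinted in the brain, was the lowest member, with 0.10 TPM in replicate 1 and 0.19 TPM in replicate 2. These stood for 9 counts in replicate 1 and 16 in replicate 2, too few to be called.

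Paired genes mostly differed in level by more than the pools did. Of 23 preset pairs, 22 had both genes measured, 21 on the same chromosome and 1, the ligand Igf2 with its receptor Igf2r, on different chromosomes. Of the 22, 20 had the same sign in both pools and a mean log2 TPM ratio beyond 1.24, among them 19 of the 21 on the same chromosome. The exceptions were H19 with Igf2 and Snrpn with Ube3a. The share of gene pairs at large beyond this limit was not computed, so the count is not shown to be particular to imprinted genes. By counts, 16 pairs were apart, and the sign differed between TPM and counts in 3 pairs, Igf2 with Igf2r, Snrpn with Ube3a and Ppp1r9a with Sgce. Pairs that held a gene called between pools were the least steady, which follows in part from the calls themselves. Dio3, with 12 counts in replicate 1 and 21 in replicate 2, lay below Dlk1 by 1445-fold in replicate 1 and 122-fold in replicate 2. Meg3 over Dlk1 was 1.52-fold in replicate 1 and 5.40-fold in replicate 2.

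**Figure D5:**
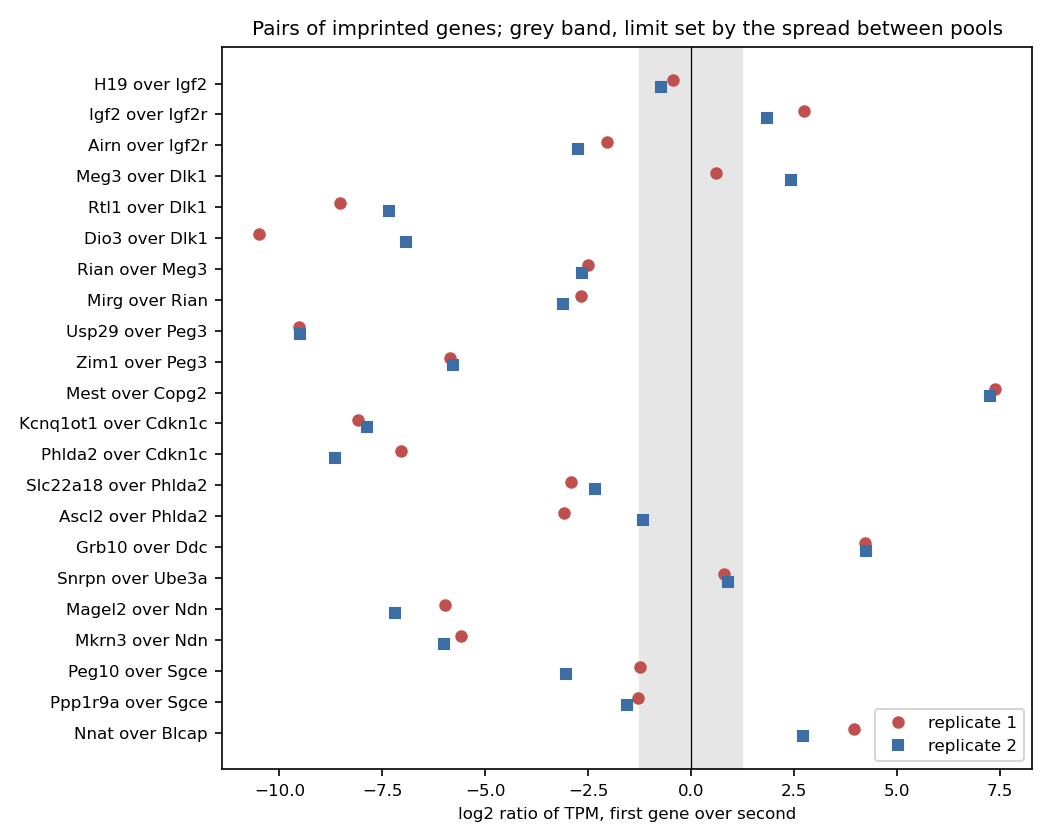
Log2 TPM ratio of the first gene over the second for 22 pairs of imprinted genes, all but Igf2 over Igf2r on the same chromosome, replicate 1 as circles and replicate 2 as squares, with the limit of 1.24 in either direction as a grey band. Both points of H19 over Igf2 and of Snrpn over Ube3a lie inside the band, and the 2 points of Grb10 over Ddc nearly coincide.

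By transcript, 29 members had several listed transcripts, and in 26 of them the same transcript led in both pools. The 3 exceptions were Slc22a18, Rasgrf1 and Ppp1r9a, and in Slc22a18 and Rasgrf1 the gene had a mean count under 50. In 10 of the 29 a single transcript held at least 80% of TPM in both pools, among them Mest, Grb10 and Igf2r.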

How the data were processed

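Total RNA from 2 pools of embryonic hearts (1 group) was analysed from tables per gene and per transcript. For each feature the authors deposited estimated counts in 2 forms, the expected count and the posterior mean, without normalisation. Deposited TPM spans all features, spike-ins included, and the bounds of its credibility interval are a deposited score. Per transcript, the authors also deposited its percent of the TPM of its gene. The assembly was mm10 with annotation release M4, per the deposited description; the quantifying program and strand use are not stated in the labels or headers. Names and positions came from GENCODE M21 (GRCm38), matched for 42462 of 43346 genes. Total expected counts were 45205713 in replicate 1 and 41070978 in replicate 2, of which ERCC spike-ins held 4.22% in replicate 1 and 3.13% in replicate 2.

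Ratios are replicate 1 over replicate 2 of counts scaled by TMM in edgeR 4.0.16 (R 4.3.3), with a prior count of 0.5. A gene was called at a mean count of 50 and a 2-fold ratio, with no p-value. Intervals of ratios are exact 95% intervals that cover counting error only. Starts within 1000 bases were joined into a start group. Python 3.11.15 with pandas 2.3.3 and scipy 1.17.1 was used. The scaling and calls were tested on simulated data with planted changes. DESeq2 1.42.0 size factors, deposited TPM, spike-in scaling and other thresholds were the alternatives.

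All 39 members are named; of other imprinted genes and imprint factors the 5 most abundant and any called are named, of transcripts those with at least 5% of Gnas, Mest, Grb10 or Ddc, and any other is marked as picked with its values in view. Members and lists were chosen with earlier results of these data known.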

Additional observations from a re-analysis of the deposited data

How the results depend on the processing

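The 7 members higher in replicate 1 were the same 7 under DESeq2 size factors, deposited TPM, posterior mean counts and a prior count of 2. Scaling by spike-ins moved the median of all genes with a mean count of 50 or more to -0.34, from which the ratios must be read, and then 4 members were 2-fold higher in replicate 1, without Mirg (0.90), Nnat (0.77) and Rtl1 (0.97), and 2 in replicate 2, where 3.23% of all genes were so in replicate 1 and 6.93% in replicate 2. The common shift alone turned the sign of Cdkn1c, Gnas, H19, Impact, Ndn and Ppp1r9a, whose ratios were near 0, and deposited TPM that of Ube3a and Zdbf2. The median log2 ratio of the members was -0.29 under that scaling and 0.13 by deposited TPM, which moved the median of all genes to 0.09. By deposited TPM, 0 members were 2-fold higher in replicate 2, where 1.86% of all genes were, since Igf2r lay at -0.96. By TMM-scaled counts with a mean count of 10 there were 3, Igf2r, Dio3 and Rasgrf1. The share of all genes at that minimum was not computed. Dio3 had 12 counts in replicate 1 and 21 in replicate 2, and Rasgrf1 had 9 and 16. The intervals from counting error of Dio3 and Rasgrf1 included a ratio of 1. The imprinted share was 1.57% of expected counts and 0.978% of posterior mean TPM. Leaving out a replicate gave 33 members detected in either case, an imprinted share of 0.993 to 1.00%, a noncoding share of 9.22 to 12.7% and 18 to 19 pairs apart. Ratios between the pools have no value without either replicate. No paired analysis was possible because there is 1 group, so no groups share replicate numbers. With 2 pools, the limits rest on a single difference.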

Other observations

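Imprinted genes outside the 39 were also widely expressed. Of 44 further imprinted genes, 41 were measured and 32 were detected at 1 TPM in both pools. The most abundant were the tetraspanin Cd81 (393 TPM in replicate 1 and 493 TPM in replicate 2), Commd1 (302 TPM in replicate 1 and 280 TPM in replicate 2), Nap1l4, a histone chaperone, (239 TPM in replicate 1 and 227 TPM in replicate 2), Slc38a4, an amino acid transporter, (121 TPM in replicate 1 and 137 TPM in replicate 2) and Asb4 (110 TPM in replicate 1 and 51.4 TPM in replicate 2). Of the 35 with a mean count of 50 or more, 2 were at least 2-fold higher in replicate 1 (Asb4 and Begain, against 5.13% of all genes) and 2 in replicate 2 (Kcnq1 and Qpct, against 2.44%). Begain, which lies beside Dlk1, had 2.62 TPM in replicate 1 and 0.98 TPM in replicate 2. Kcnq1, a potassium channel and the host of Kcnq1ot1, had 4.53 TPM in replicate 1 and 8.92 TPM in replicate 2, while Kcnq1ot1 itself had 3.89 TPM in replicate 1 and 3.95 TPM in replicate 2. Over these 35 genes the median log2 ratio was -0.02.

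Of 19 factors that set or keep imprints, 17 were detected and 0 of 17 with a mean count of 50 or more were 2-fold apart in either direction, where 5.13% of all genes were 2-fold higher in replicate 1 and 2.44% in replicate 2. The most abundant were the chromatin subunit Rbbp4 (312 TPM in replicate 1 and 278 TPM in replicate 2), Trim28, a partner of ZFP57, (307 TPM in replicate 1 and 186 TPM in replicate 2), Mbd3 (262 TPM in replicate 1 and 202 TPM in replicate 2), Cbx5 (125 TPM in replicate 1 and 129 TPM in replicate 2) and Uhrf1 (136 TPM in replicate 1 and 115 TPM in replicate 2). Their median log2 ratio was 0.19.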
